A study of Mus musculus with 18 samples.

Results

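Saa3, Lcn2, Hp, S100a8, S100a9, Slpi, Ltf, Camp, Ngp and Prtn3 were followed across 18 RNA sequencing libraries of mouse eosinophils that had been cultured with apoptotic cells (ACs) in the presence of Type 1 stimuli or of IL-4. Saa3 took between 2.13% and 5.05% of the reads of each library. E. coli was the stimulus with the highest mean of Saa3, Lcn2, Hp, S100a8, S100a9 and Slpi in its experiment. The 3 libraries with IFN-γ and E. coli together lay below all 3 libraries with E. coli alone for each of these 6 genes. The same held for 19.4% of all genes fitted, and for Saa3 and S100a9 the difference was not past the threshold given below. IL-4 left Lcn2 at a mean of 213 ± 51.4 (SD, n = 3), against 1791 ± 145 in its own ACs group. Ltf, Camp and Ngp were too low to be fitted, with normalized counts of at most 2.51, 6.11 and 13.4 in any library. These 10 genes were chosen by their levels and by their changes with each stimulus against the ACs group of the same experiment, so those changes are given as a description. They are 10 of the 54446 genes in the table.

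Most of these genes encode antimicrobial proteins that are known from neutrophils and from the acute phase response. Serum amyloid A, lipocalin 2 and haptoglobin bind lipids, bacterial siderophores and free haemoglobin, respectively. S100A8 and S100A9 pair to form calprotectin, which withholds zinc and manganese from microbes. SLPI inhibits serine proteases of neutrophils, and proteinase 3, encoded by Prtn3, is one such protease. Lactoferrin, cathelicidin and neutrophilic granule protein, encoded by Ltf, Camp and Ngp, are packed into granules while neutrophils mature. Eosinophils have their own granule proteins, and transcripts of the genes above are not among the markers by which they are usually recognised.

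Eosinophils came from the peritoneal cavity of Il5Tg (NJ.1638) mice on a C57BL/6 background, in which an Il5 transgene expressed in T cells drives a large excess of eosinophils. Every group was co-cultured for 18 h with 5 dexamethasone-killed wild-type thymocytes per eosinophil, so all libraries share the apoptotic cells, and eosinophils without them are not analysed here. The Type 1 experiment held ACs, E. coli + ACs, IFN-γ + ACs and IFN-γ + E. coli + ACs, and the IL-4 experiment held ACs and IL-4 + ACs, with 3 libraries in each of the 6 groups. Where both Type 1 stimuli were given, the study states that IFN-γ came first and E. coli followed it. The study's methods state that eosinophils were depleted of Thy1.2+ and B220+ cells before culture and were selected again with anti-Siglec-F beads after it. The mouse behind each library is not named in the labels, so p-values measure the spread between these libraries. CEL-Seq2, which reads the 3′ end of transcripts, gave between 779421 and 7782072 reads on genes per library. The smallest libraries were replicate 3 of IL-4 + ACs and replicate 3 of its ACs, in which 3 reads stand for normalized counts of 15.4 and 16.1. Siglecf (1514 to 3367) and Ccr3 (2623 to 4934), which mark eosinophils, were high in every library. Among transcripts of eosinophil granule proteins, Ear6 had 336 to 8689 and Prg2 had 57.5 to 270, while Epx (0 to 25.7) and Prg3 (0 to 26.8) were lower.

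The sequences before the RefSeq start sites are shown for the 5 genes whose change with both stimuli fell short of the sum of the single changes by more than the 1.5-fold limit, as given further on. They were read from RefSeq windows on GRCm38.p6, which were found for 9 of the 10 genes. Capitals mark matches to the C/EBP-type letters TTNNGCAA on either strand, since C/EBP factors are known regulators of acute phase and granule genes. Each sequence runs 5′ to 3′ on the strand of its gene and covers the 160 bases from 250 to 91 before the RefSeq start, except for Lcn2, where 30 bases around the match are given. The stretches lie at chr7:46715767-46715926 (minus strand), chr2:32387937-32387966 (minus), chr3:90668821-90668980 (plus), chr3:90695812-90695971 (minus) and chr2:164356598-164356757 (minus). For Lcn2 and Slpi the RefSeq start lies downstream of the start of the annotated gene given with the values, so their stretches are inside that gene, and 139 bases of the Lcn2 window from 250 to 91 lie in an annotated exon. The RefSeq starts of Saa3 and S100a8 also lie downstream of the annotated ones, and 3 bases of the S100a8 stretch are in an annotated exon.
Saa3: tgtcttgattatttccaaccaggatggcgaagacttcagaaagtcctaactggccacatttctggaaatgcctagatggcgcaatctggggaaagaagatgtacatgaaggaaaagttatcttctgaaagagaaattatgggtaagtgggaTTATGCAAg
Lcn2: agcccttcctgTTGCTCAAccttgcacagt
S100a8: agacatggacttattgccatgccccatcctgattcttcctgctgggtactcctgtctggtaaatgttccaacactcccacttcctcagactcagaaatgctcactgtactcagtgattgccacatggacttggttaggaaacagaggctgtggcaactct
S100a9: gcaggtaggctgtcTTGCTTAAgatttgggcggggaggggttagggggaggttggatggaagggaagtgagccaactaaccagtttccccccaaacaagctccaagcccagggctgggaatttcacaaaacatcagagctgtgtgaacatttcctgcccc
Slpi: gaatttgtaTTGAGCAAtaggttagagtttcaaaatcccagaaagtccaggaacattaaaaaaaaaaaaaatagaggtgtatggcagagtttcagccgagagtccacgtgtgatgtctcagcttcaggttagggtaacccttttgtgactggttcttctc
The C/EBP-type letters were found in 6 of the 9 windows of 300 bases, those of Saa3, Lcn2, S100a9, Slpi, Ltf and Ngp. Of all 32851 windows of the same length, 10.8% held them. In Saa3 the match lay from 99 to 92 bases before the start. A kappaB-type motif (GGG, 2 free bases, TT, 1 free base, CC) was in none of the 9 and in 4.79% of all. An ISRE-type motif (GAAA, 2 free bases, GAAA) was in the Saa3 window alone of the 9 and in 3.44% of all, and each motif was searched on both strands. S100a8 had no match to any of these motifs in this window. No binding was measured, and the matches are a description of the letters.

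Saa3 (ENSMUSG00000040026.8, chr7:46711998-46715700, minus strand) encodes a serum amyloid A that is induced outside the liver. In ACs of the Type 1 experiment its normalized counts were 116403, 114633 and 81591. With E. coli + ACs they were 161659, 133592 and 168187. With IFN-γ + ACs they were 149577, 167201 and 121749. Both single stimuli therefore lay above ACs without overlap, with log2 fold changes of 0.58 ± 0.15 (SE) for E. coli and 0.49 ± 0.15 for IFN-γ, each under the 1.5-fold limit used here. The E. coli value was 0.66 to 0.68, over that limit, without replicate 1 or 2 of ACs or replicate 2 of E. coli + ACs, and the IFN-γ value was 0.62 without replicate 3 of IFN-γ + ACs. In IFN-γ + E. coli + ACs the libraries had 112389, 117258 and 120480, which overlapped ACs (log2 fold change 0.18 ± 0.15) and lay below every library with a single stimulus. In the IL-4 experiment, ACs had 148683, 182842 and 211158. IL-4 + ACs had 106442, 103211 and 190845. The ranges overlapped through replicate 3 of IL-4 + ACs, 1 of the small libraries (log2 fold change -0.48 ± 0.24). As a share of reads, not divided by length, Saa3 was lowest in a library of ACs of the Type 1 experiment (2.13%) and highest in a library of ACs of the IL-4 experiment (5.05%).

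Lcn2 (ENSMUSG00000026822.14, chr2:32384633-32388252, minus strand), which encodes the siderophore-binding lipocalin 2, was higher with E. coli and lower with IL-4. Its normalized counts were 7669, 8591 and 5926 in ACs and 17533, 13953 and 16610 in E. coli + ACs, so that the mean rose 2.17-fold. The IFN-γ + ACs libraries had 9539, 11147 and 5664, a range that enclosed that of ACs. IFN-γ + E. coli + ACs had 6218, 7431 and 7513, within the range of ACs. On the log2 scale the changes against ACs were 1.13 ± 0.19 (SE) with E. coli, 0.21 ± 0.19 with IFN-γ and -0.06 ± 0.19 with both. Among the libraries of the IL-4 experiment, those of ACs had 1641, 1801 and 1930, and those of IL-4 + ACs had 188, 180 and 272. The lowest ACs library thus stood far above the highest IL-4 library, and the log2 fold change was -3.09 ± 0.18. The ACs groups of the experiments are given side by side only: Lcn2 took 0.189% of reads on average in ACs of the Type 1 experiment and 0.0437% in ACs of the IL-4 experiment, and the experiment and the culture cannot be told apart.

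Hp (ENSMUSG00000031722.10, chr8:109575128-109579172, minus strand), encoding haptoglobin, was the only one of these genes that was lower with IFN-γ and with IL-4 and higher with E. coli alone, in each case with no overlap of the ranges. The ACs libraries of the Type 1 experiment had normalized counts of 700, 741 and 619. With E. coli + ACs Hp had 1038, 868 and 1040. With IFN-γ + ACs it fell to 239, 209 and 160. With IFN-γ + E. coli + ACs it had 178, 285 and 185, so the libraries with IFN-γ overlapped each other whether or not E. coli was present. The log2 fold changes against ACs were 0.51 ± 0.18 (SE) with E. coli, -1.77 ± 0.18 with IFN-γ and -1.69 ± 0.18 with both. In the IL-4 experiment ACs had 441, 538 and 386 and IL-4 + ACs had 155, 147 and 97.7 (log2 fold change -1.78 ± 0.22).

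S100a8 (ENSMUSG00000056054.9, chr3:90668978-90670035, plus strand) and S100a9 (ENSMUSG00000056071.12, chr3:90692632-90695721, minus strand) lie close together and encode the subunits of calprotectin. S100a8 had normalized counts of 46.4, 56.3 and 39.1 in ACs and 383, 254 and 355 in E. coli + ACs, a 6.99-fold higher mean. The IFN-γ + ACs libraries had 115, 124 and 146, and the libraries with both stimuli had 134, 114 and 189. All 9 stimulated libraries were above ACs, and the 3 with E. coli alone were above the other 6. The log2 fold changes of S100a8 were 2.77 ± 0.22 (SE), 1.43 ± 0.22 and 1.58 ± 0.22 in the same order. S100a9 had 3, 0 and 5 reads in the ACs libraries and 62, 47 and 42 in E. coli + ACs. These are normalized counts of 2.44, 0 and 4.08 against 51.9, 38.4 and 36.9. The IFN-γ + ACs libraries had 10.6, 20.6 and 12.3, and those with both stimuli had 31.4, 13.4 and 33.1. Its log2 fold changes were 4.05 ± 0.56 with E. coli, 2.52 ± 0.56 with IFN-γ and 3.28 ± 0.56 with both, and with 8 reads in the ACs group they depend on the pseudocount: a pseudocount of 5 in place of 1 gave 2.75 for E. coli. With IL-4 as the stimulus, S100a8 had 28.6, 49.8 and 59.0 in ACs and 18, 20.6 and 10.3 in IL-4 + ACs, with no overlap, a log2 fold change of -1.43 ± 0.43 and only 2 reads in the lowest library. S100a9 had 28.6, 31.1 and 10.7 in ACs and 33.6, 21.6 and 30.8 in IL-4 + ACs, which overlapped.

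Slpi (ENSMUSG00000017002.14, chr2:164354070-164389095, minus strand), the secretory leukocyte protease inhibitor, had normalized counts of 1003, 954 and 908 in ACs. The E. coli + ACs libraries had 3192, 2529 and 2959, a 3.03-fold higher mean. With IFN-γ + ACs Slpi had 1570, 1704 and 1340, and with both stimuli 1331, 1741 and 1657. As for S100a8, every stimulated library was above ACs, and the libraries with E. coli alone were above the rest. The log2 fold changes were 1.59 ± 0.13 (SE), 0.68 ± 0.13 and 0.71 ± 0.13. The last of these was 0.57, under the 1.5-fold limit, when the libraries were rescaled to a common upper quartile. IL-4 + ACs had 796, 797 and 1218 and its ACs had 1093, 1219 and 1635, with overlap of 1 library of each group (log2 fold change -0.50 ± 0.20).

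Prtn3 (ENSMUSG00000057729.12, chr10:79874476-79883174, plus strand), encoding the neutrophil serine protease proteinase 3, was highest in ACs of the IL-4 experiment, with normalized counts of 54.1, 83.3 and 80.4. In IL-4 + ACs it had 15.1, 12.1 and 5.14, from 26, 23 and 1 reads, and the log2 fold change was -2.73 ± 0.45 (SE). Leaving out any 1 of the 3 ACs libraries kept the log2 fold change between -2.93 and -2.62 but took it out of the genes past the threshold. In the Type 1 experiment Prtn3 was too low to be fitted: ACs had 10.6, 11.3 and 16.3, and each of the 9 stimulated libraries had less, from 0 to 8.21. The group with both stimuli had the lowest mean, with 0, 2.44 and 1.38, or 3 reads in all. ACs was thus the highest group of that experiment for Prtn3 and the lowest for S100a8, S100a9 and Slpi.

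Ltf, Camp and Ngp, the granule genes of maturing neutrophils, were too low for a fit in both experiments. Ltf (ENSMUSG00000032496.7, chr9:111019271-111042767) ranged from 0 to 2.51 and had no read in the 3 libraries with both Type 1 stimuli. Camp (ENSMUSG00000038357.10, chr9:109847379-109849617) ranged from 0 to 6.11, with 1 read in the ACs group of the Type 1 experiment and 15 in E. coli + ACs. Ngp (ENSMUSG00000032484.8, chr9:110419747-110423012) had 3, 2 and 0 reads in ACs and 13, 16 and 11 in E. coli + ACs, or normalized counts of 2.44, 1.88 and 0 against 10.9, 13.1 and 9.68. In IFN-γ + ACs Ngp had 2.29 to 6.60, and with both stimuli 2.76 to 13.4. For Camp and Ngp the E. coli libraries were above ACs without overlap, at 3 to 7 reads for Camp and 11 to 16 for Ngp. In the IL-4 experiment Ngp ranged from 0 to 5.27, Camp from 0 to 1.56 and Ltf from 0 to 1.05.

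**Figure D1:**
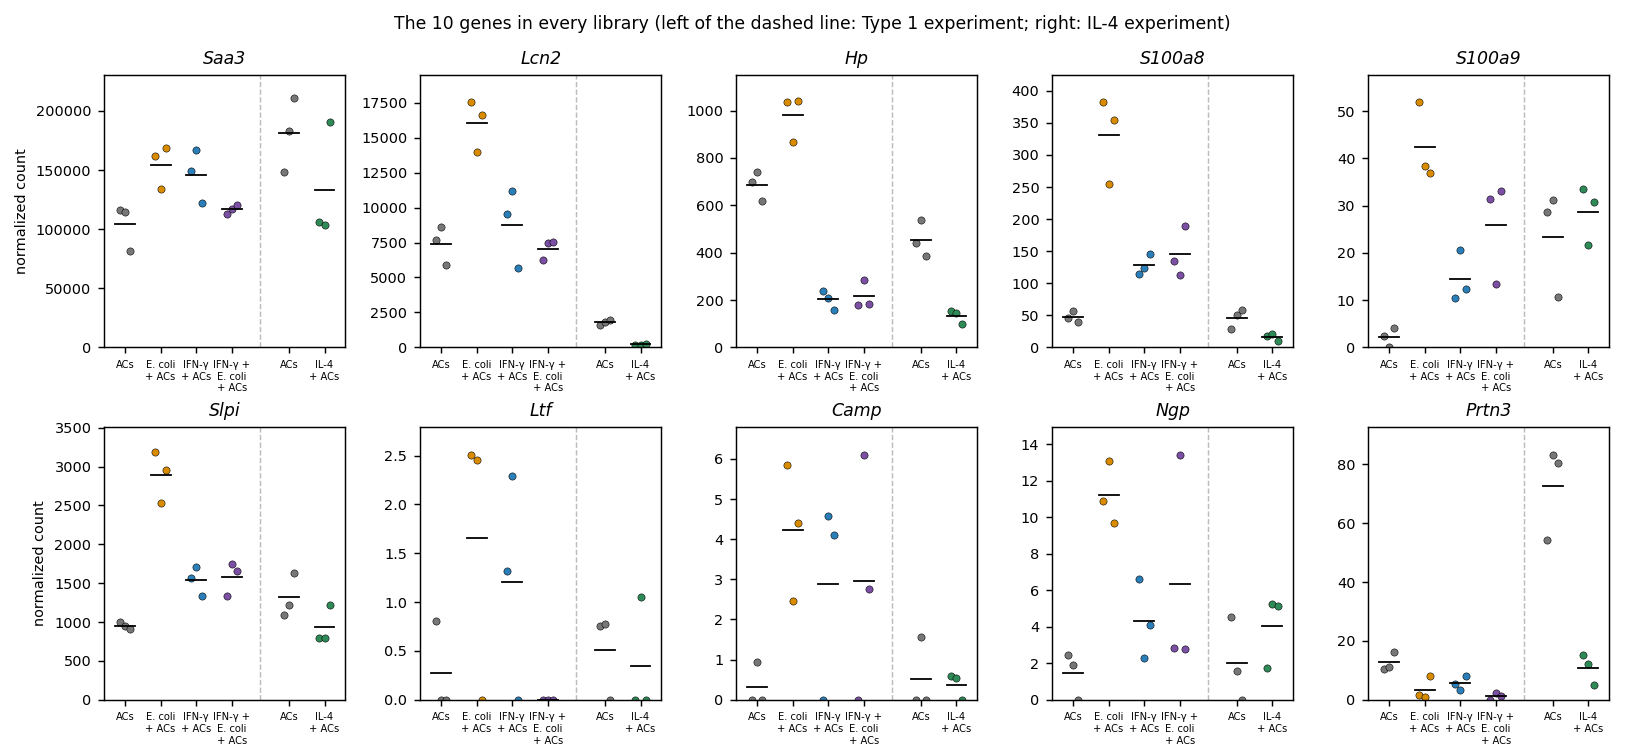
Normalized count of each of the 10 genes in the 18 libraries, on a linear axis of its own that starts at 0. Points are libraries, lines are group means (n = 3), and the dashed line separates the Type 1 experiment from the IL-4 experiment. The E. coli + ACs libraries are the highest of the Type 1 experiment for Lcn2, S100a8, S100a9 and Slpi, and Hp is lowest wherever IFN-γ or IL-4 was given.

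Changes were fitted with limma on log2 of the normalized count plus 1, over genes whose mean in the experiment was 10 or more. Genes past the threshold had an adjusted p under 0.05 and differed by 1.5-fold or more. Of the 10 genes, 6 passed the filter in the Type 1 experiment (10166 genes) and the same 6 and Prtn3 in the IL-4 experiment (10669 genes). S100a9 passed in the Type 1 experiment through its stimulated groups, with a mean of 2.17 in ACs, and Prtn3 in the IL-4 experiment through ACs. Because the genes were chosen on these comparisons, the shares of all genes are printed beside their counts and nothing is read from them. With E. coli, Lcn2, S100a8, S100a9 and Slpi were past the threshold as higher, 4 of 6 where 5.05% of all genes were, and 0 of 6 were lower, where 5.25% were. All 6 had E. coli libraries above ACs without overlap, as did 19.9% of all genes. With IFN-γ, S100a8, S100a9 and Slpi were past it as higher (3 of 6, all genes 11.4%) and Hp as lower (1 of 6, all genes 9.96%). With IFN-γ 4 of 6 were higher without overlap (all genes 22.6%) and 1 was lower (20.3%). With both stimuli the same 3 were higher (all genes 14.7%) and Hp was lower (all genes 17.2%). The 3 and the 1 were also those without overlap there (all genes 23.9% and 24.8%). With IL-4, Lcn2, Hp and Prtn3 were past the threshold as lower, 3 of 7 where 0.347% of all genes were, and 0 of 7 were higher, where 0.74% were. Lcn2, Hp, Prtn3 and S100a8 were lower with IL-4 without overlap (4 of 7, all genes 8.84%). For the 0 counts with E. coli and IL-4, edgeR and DESeq2 on the recovered reads also gave 0, as did an unadjusted limma p under 0.05.

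**Figure D2:**
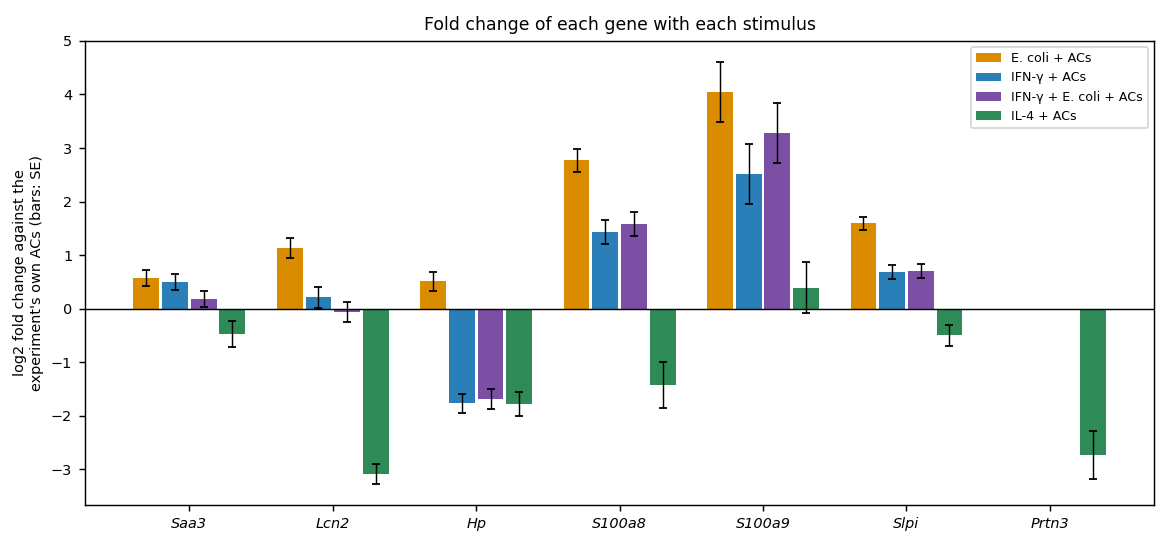
Log2 fold change of the 7 fitted genes against the ACs group of the same experiment, with bars for the standard error (n = 3 libraries per group). Prtn3 was fitted in the IL-4 experiment alone. S100a9 has the tallest bars, 4.05 for E. coli, 2.52 for IFN-γ and 3.28 for both, and Lcn2 the deepest, -3.09 for IL-4.

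The stimulated groups were next compared with each other, which asks whether IFN-γ and E. coli act on these genes alike and whether one alters the effect of the other. These comparisons are differences of those on which the genes were chosen and use the same libraries. They are therefore a description and not independent evidence, and no p is given for the 10 genes. The threshold still used the adjusted p from limma over all 10166 genes. In IFN-γ + E. coli + ACs, Hp, Lcn2, S100a8 and Slpi were lower than in E. coli + ACs past the threshold. These were 4 of 6, against 9.57% of all genes, and 0 of 6 were higher, against 9.79%. Lcn2 was lower by 1.18 ± 0.19 (SE) on the log2 scale, with a mean of 7054 ± 725 (SD, n = 3) against 16032 ± 1859. Hp differed by -2.21 ± 0.18 and S100a8 by -1.19 ± 0.22. For Slpi the difference was -0.88 ± 0.13. Saa3 and S100a9 were also lower in all 3 libraries with both stimuli than in any with E. coli alone, so that 6 of 6 did not overlap (19.4% of all genes were lower without overlap). Their differences of -0.40 ± 0.15 and -0.77 ± 0.56 were not past the threshold.

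When E. coli was added to IFN-γ, none of the 6 genes changed past the threshold in limma. Among all genes 5.96% were past it as higher and 8.61% as lower in that comparison. At an unadjusted limma p under 0.05 the count was 0 as well, and it was 0 with edgeR and with DESeq2. The log2 fold changes lay between -0.31 ± 0.15 for Saa3 and 0.75 ± 0.56 for S100a9, with 0.03 ± 0.13 for Slpi and 0.16 ± 0.22 for S100a8. Saa3 was lower with both stimuli without overlap, 1 of 6, as were 15.3% of all genes.

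IFN-γ + ACs and E. coli + ACs differed for the same 4 genes as above, all lower with IFN-γ (4 of 6, all genes 6.72%), and 0 of 6 were higher (all genes 9.84%). Hp was 202 ± 39.7 with IFN-γ and 982 ± 98.6 with E. coli (log2 difference -2.29 ± 0.18). S100a8 differed by -1.35 ± 0.22, Lcn2 by -0.92 ± 0.19 and Slpi by -0.91 ± 0.13. S100a9 also had no overlap, which made 5 of 6 (17.4% of all genes were lower without overlap), and its difference was -1.52 ± 0.56, not past the threshold. That call depended on the method, since S100a9 passed with edgeR, with DESeq2 and with a pseudocount of 5. Saa3 did not differ past the threshold (-0.08 ± 0.15), and its ranges overlapped.

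The interaction, which is the E. coli effect in the presence of IFN-γ minus the effect in its absence, is built from the comparisons on which the genes were chosen, so it is given as a description with no p. It was negative past the threshold for 5 of 6 genes, where 4.28% of all genes were, and positive for 0 of 6, where 3.16% were. The log2 values were -2.62 ± 0.30 for S100a8, -1.56 ± 0.18 for Slpi and -1.39 ± 0.27 for Lcn2. S100a9 had -3.29 ± 0.79, but it was fitted only through its stimulated groups and rests on 8 reads in ACs. Without replicate 1 of E. coli + ACs it was -3.14 and no longer past the threshold. Saa3 had -0.89 ± 0.21, which was not past the threshold when all genes with any value above 0 were fitted. Hp had -0.44 ± 0.25, not past the threshold. Stated as sums, the single log2 changes of S100a8 add to 4.2 and the libraries with both stimuli had 1.58. For Slpi the sum was 2.27 against 0.71, for Lcn2 1.33 against -0.06, and for Saa3 1.07 against 0.18. For S100a9 the sum was 6.57 against 3.28, and for Hp -1.26 against -1.69. The change with both stimuli stood beside that with IFN-γ alone as 1.58 to 1.43 for S100a8 and 0.71 to 0.68 for Slpi.

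**Figure D3:**
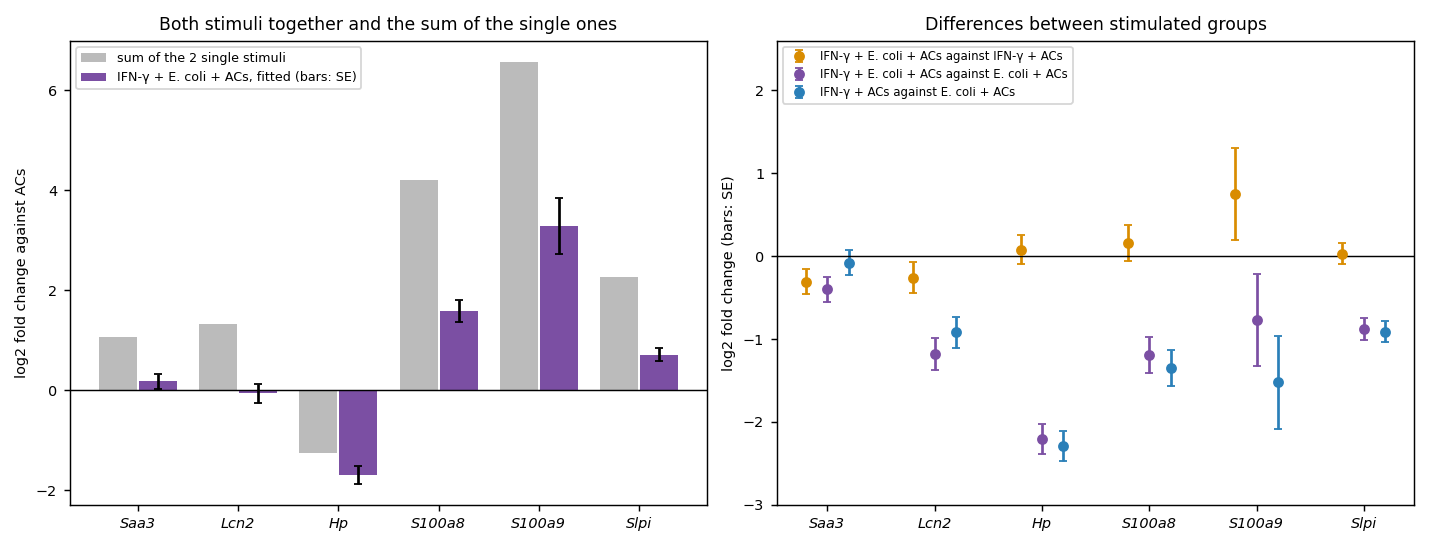
Left, log2 fold change against ACs of the 6 genes fitted in the Type 1 experiment: the sum of the changes with E. coli and with IFN-γ (grey) and the change with both (purple, bars show the SE). Right, log2 differences between stimulated groups with their SE. The grey bar exceeds the purple one for 5 genes, with 4.2 against 1.58 for S100a8, and the orange points, for E. coli added to IFN-γ, lie between -0.31 and 0.75.

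Across the 12 libraries of the Type 1 experiment, S100a8 and Slpi varied most alike among the 6 genes (Pearson r = 0.95 of the log2 values). S100a8 and S100a9 had r = 0.86, Lcn2 and Slpi 0.84, S100a9 and Slpi 0.82, and Saa3 and Lcn2 0.80. Hp stood apart, with r = 0.62 to Lcn2, 0.10 to Saa3 and to S100a8, and -0.14 to S100a9. These correlations are descriptions over 12 libraries that share 4 groups and size factors. Among the other genes with a mean of at least 50, the closest to Slpi were Cd14 (r = 0.964), which encodes a co-receptor for lipopolysaccharide, and Il10 (r = 0.949), which encodes an anti-inflammatory cytokine. Il10 (r = 0.937) and Ch25h (r = 0.928) were also closest to S100a8 after Slpi. For Lcn2 the closest were Ifitm2 (r = 0.953) and Rangap1 (r = 0.926), and Cd14 followed with r = 0.882. Hp was closest to Bcl2a1a (r = 0.981), Car4 (r = 0.974) and Grk6 (r = 0.957), and Saa3 to Atp5h (r = 0.879) and Fkbp1a (r = 0.878). S100a9 was closest to Traf1 (r = 0.960) and Ehd1 (r = 0.929).

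Markers of other cell types moved with some of these changes, and their part in the results was not tested. In bulk RNA, fewer cells of a type and less RNA per cell cannot be told apart. All 11 macrophage markers were detected in every library. Their sum ranged from 16899 to 22077 in ACs of the Type 1 experiment, from 8777 to 11707 with E. coli, from 27703 to 39329 with IFN-γ and from 9937 to 11173 with both. Lcn2, S100a8, S100a9 and Slpi were thus higher with E. coli where the macrophage sum was lower. In ACs, E. coli + ACs and IFN-γ + ACs, the library with the lowest macrophage sum was also the lowest in Saa3 and in Lcn2, whereas in IFN-γ + E. coli + ACs it was the highest in both. Of the 11 macrophage markers, 5 were lower with E. coli, 6 were higher and 1 lower with IFN-γ, 2 were higher and 5 lower with both, and 2 were lower with IL-4. In the IL-4 experiment the macrophage sums were 30669 to 46682 in ACs and 22164 to 38524 in IL-4 + ACs, and replicate 3 had the highest sum and the highest Saa3, Lcn2 and Slpi in both groups. The IL-4 experiment without its replicate 3 libraries, an alternative chosen after seeing the data, gave log2 fold changes of -3.22 for Lcn2, -1.68 for Hp, -2.23 for Prtn3 and -0.65 for Saa3.

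Neutrophil markers gave sums of 1568 to 2633 in the Type 1 experiment and 3924 to 5058 in the IL-4 experiment. Most of this sum was Retnlg (746 to 4666), whereas Mrgpra2b and Stfa2 were at 0 in all 18 libraries. Cd177 (0 to 0.88), Mpo (0 to 3.89) and Elane (0 to 12) were at or near 0. Of the 13 neutrophil markers, 6 were fitted in the Type 1 experiment. Cxcr2 and Stfa3 were higher with E. coli (log2 fold changes 2.68 ± 0.26 and 2.56 ± 0.42, limma adjusted p = 8.9e-07 for Cxcr2) while Mmp8 was lower. Ly6g and Stfa3 were higher with IFN-γ (2.16 ± 0.51 and 1.30 ± 0.42), again with Mmp8 lower. Stfa3, with a mean of 7.16 in ACs, was fitted only through its stimulated groups, so no p is given for it. Ly6g was fitted only through the groups with IFN-γ and is given without p as well. Its means were 3.74 in ACs, 5.92 with E. coli, 21.55 with IFN-γ and 17.8 with both. Ly6g had 13 reads in ACs and 41 in IFN-γ + ACs, and Stfa3 had 25 and 40. With both stimuli Ly6g and Cxcr2 were higher (2.01 ± 0.51 and 1.93 ± 0.26, limma adjusted p = 1e-05 for Cxcr2) and Retnlg was lower. With IL-4, 1 of the 5 neutrophil markers fitted was lower, Mmp8, and 0 were higher in limma. As higher, 1 had an unadjusted limma p under 0.05, 1 passed with edgeR and 1 with DESeq2. Cxcr2 had a mean of 130 with IL-4 against 40.8 in its ACs, without overlap. The neutrophil sum itself was 2148 to 2439 in ACs and 2195 to 2567 with E. coli, which overlapped. Retnlg, with means of 1665 and 1683, made up most of it, so the sum says little about the other markers. From ACs to E. coli + ACs the mean of Cxcr2 rose from 52.05 to 332 and that of Stfa3 from 7.16 to 46.2, while Mmp8 fell from 522 to 193. Whether neutrophils had a part in the change of S100a8 was not tested. The thymocyte markers summed to between 51.1 and 197, and whether these reads came from the apoptotic cells was not tested. Eosinophil markers summed to 16335 to 17755 in ACs of the Type 1 experiment, 17549 to 18799 with E. coli, 10004 to 11253 with IFN-γ and 14440 to 17104 with both. For the IL-4 experiment they summed to 21204 to 23805 in ACs and 23952 to 26586 in IL-4 + ACs. Ighm, a B cell gene, was lower with each Type 1 stimulus, with a log2 fold change of -1.88 ± 0.18 with E. coli (limma adjusted p = 4.5e-07).

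**Figure D4:**
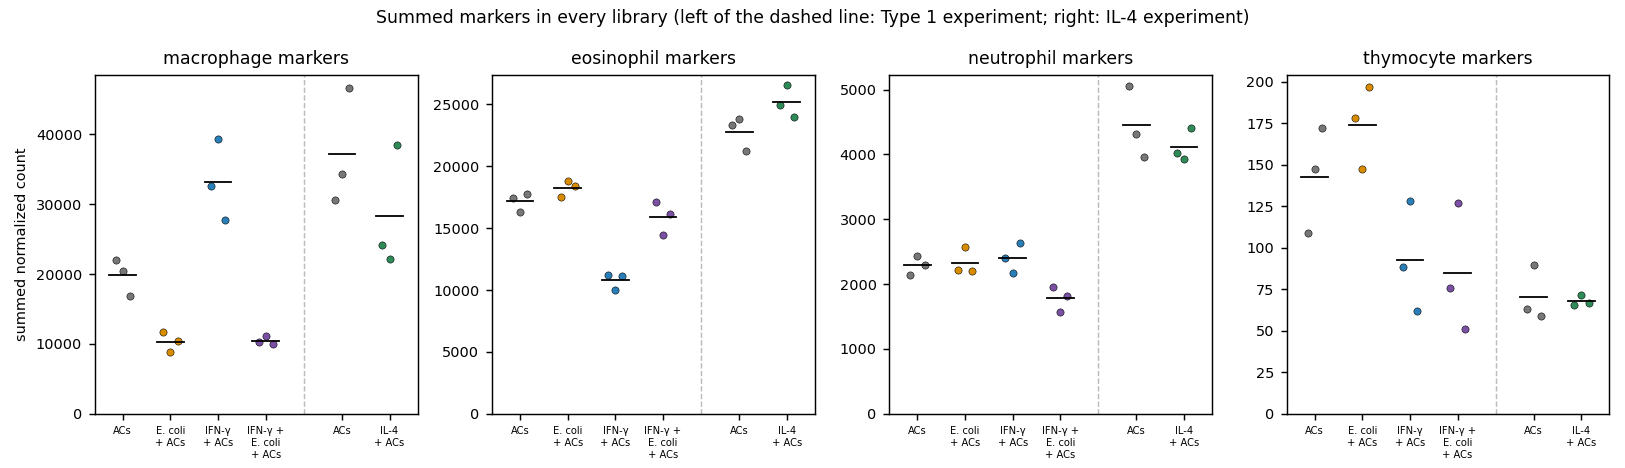
Summed normalized counts of macrophage, eosinophil, neutrophil and thymocyte markers in the 18 libraries, each on an axis that starts at 0. Points are libraries and lines are group means (n = 3). Macrophage sums are lowest in both groups with E. coli, from 8777 to 11707. Neutrophil sums, which are mostly Retnlg, overlap between ACs and E. coli + ACs.

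The genes around the 10 were read from lists chosen with earlier results of these data known. Other neutrophil granule genes moved in both directions. Of 18 listed, 8 were fitted, and with E. coli 1 was higher and 2 were lower, with a median log2 change of -0.14 where that of all genes was -0.004. Mmp25, a membrane metalloproteinase, was higher with E. coli (1.07 ± 0.11, limma adjusted p = 1.3e-06), and Pglyrp1, which binds bacterial peptidoglycan, was lower (-1.11 ± 0.11, limma adjusted p = 1.3e-06) and fell further with IFN-γ (-2.44 ± 0.11, limma adjusted p = 6.1e-12). Mmp8, a neutrophil collagenase, was lower with either stimulus alone and not past the threshold with both, and its interaction was positive (2.94 ± 0.21, limma adjusted p = 1e-07), opposite in sign to that of S100a8. Lyz2 was higher with IFN-γ (0.95 ± 0.15, limma adjusted p = 6.9e-05). With IL-4 1 of 8 passed, Mmp8 (-2.27 ± 0.21, limma adjusted p = 0.00065).

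Relatives by family also moved in both directions. Saa1, which like Saa3 encodes a serum amyloid A, rose with E. coli from a mean of 94.1 to 306 (log2 fold change 1.71 ± 0.27, limma adjusted p = 0.00017) and fell to 29.6 with IFN-γ (-1.66 ± 0.27, limma adjusted p = 0.0001), where Saa3 was not lower. Reads of Saa1 and Saa2, near-identical genes, may have been split by the counting, and Saa2 was at most 36.5 on average in any group of the Type 1 experiment. S100a6 fell with IFN-γ (-1.85 ± 0.13, limma adjusted p = 2.7e-09), where S100a8 and S100a9 were higher, and S100a10 fell with E. coli (-0.93 ± 0.12, limma adjusted p = 1.7e-05). Wfdc17, which has a WAP domain as Slpi does, rose with IFN-γ (1.41 ± 0.21, limma adjusted p = 5.4e-05). Of 9 relatives fitted, 1 was higher and 2 lower with E. coli, 1 and 3 with IFN-γ, and 1 and 3 with both. With IL-4 none of 9 passed in limma, with 2 lower at an unadjusted p under 0.05, 1 lower with edgeR and 0 with DESeq2.

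Of 11 other acute phase genes, 7 were fitted in the Type 1 experiment, and 4 were higher with E. coli and 1 lower. Ptx3, encoding a long pentraxin, and Cp, encoding ceruloplasmin, were higher with E. coli (1.97 ± 0.52 and 1.1 ± 0.21, limma adjusted p = 0.015 and 0.0013). In IFN-γ + E. coli + ACs, 5 of the 7 were lower than in E. coli + ACs and 2 were higher. Among the 5 were Ptx3 (-2.23 ± 0.52, limma adjusted p = 0.0039) and Saa1 (-1.88 ± 0.27, limma adjusted p = 3.9e-05). C3 and Serpina3g had the other direction and were higher with IFN-γ (2.03 ± 0.17 and 5.06 ± 0.29, limma adjusted p = 4.4e-08 for C3). Serpina3g was also higher with IL-4 (5.88 ± 0.61), with a mean of 106 against 1.03, or 4 reads, in its ACs, so that value depends on the pseudocount. Orm1 was lower with IL-4 from a mean of 36.3 (-2.76 ± 0.54). No p is given for Serpina3g, fitted only through the groups with IFN-γ or IL-4, or for Orm1, fitted only through ACs. Of these 7 genes, Serpina3g alone had an interaction past the threshold (-1.92 ± 0.41).

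Receptors for the encoded proteins and regulators of the genes were also listed. Cd14 rose with E. coli from 5859 to 11059 on average (0.92 ± 0.12, limma adjusted p = 2.7e-05) and had a negative interaction (-0.89 ± 0.17, limma adjusted p = 0.0031), as Slpi and Lcn2 did. Fpr2, a formyl peptide receptor that also binds serum amyloid A, rose with E. coli (0.88 ± 0.16, limma adjusted p = 0.00087) and with IFN-γ (1.97 ± 0.16, limma adjusted p = 2.3e-08), and fell with IL-4 (-2.57 ± 0.32, limma adjusted p = 0.0044). Cd163, the haptoglobin-haemoglobin receptor, was lower with E. coli (-2.59 ± 0.79) and with IFN-γ (-3.53 ± 0.79). Cd163 was fitted only through ACs, where its mean was 52.6, so no p is given for it. Tlr4, at which calprotectin acts, was not past the threshold in any comparison. Of 11 receptors and binding partners fitted, 3 were higher and 3 lower with E. coli, 4 and 2 with IFN-γ, 2 and 3 with both, and with IL-4 0 of 12 were higher and 1 lower.

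All 18 regulators were fitted, and 5 were higher with E. coli, 4 with IFN-γ and 10 with both, with 1 lower in each case. Nfkbiz, the kappaB cofactor needed for Lcn2 transcription in other cells, was higher with E. coli (1.56 ± 0.20, limma adjusted p = 1.7e-05) and with both stimuli (2.04 ± 0.20, limma adjusted p = 1.3e-07). Cebpb was higher with both stimuli (1.00 ± 0.10, limma adjusted p = 3.1e-07), Cebpe was lower with IFN-γ (-0.74 ± 0.18, limma adjusted p = 0.0041), and Cebpa was lower with E. coli, with both and with IL-4 (-1.65 ± 0.29 with IL-4, limma adjusted p = 0.027). For the interaction 0 of 18 regulators passed in limma, with 6 at an unadjusted p under 0.05 and 0 with edgeR and with DESeq2.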

How the data were processed

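RNA of mouse eosinophils was sequenced by CEL-Seq2 in 18 libraries, 3 for each of 6 groups, which were taken from the labels. The deposited values are a signal per gene, read counts that the authors divided by a size factor with DESeq2, for 54446 genes. The submitters' processing notes name TopHat2 2.1.0, HTSeq 0.6.1 and DESeq2 1.26.0, and the study's methods describe a further pipeline. Which of them made the table is not given in the sources used here. Every column was used. Deposited values were whole multiples of 1 step per library, and whole reads were recovered for 100.0% of them (tolerance 0.01 reads). Reads on genes had a median of 4461121 per library, and a gene under 3 reads was treated as not told from 0. Symbols were matched by Ensembl ID without version for 54409 genes on GRCm38.

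The 10 genes, the lists and the alternatives were chosen with earlier results of these data known. Limma 3.58.1 in R 4.3.3 (lmFit, eBayes with trend) was fitted on log2(normalized count + 1) of genes whose mean was 10 or more, separately for the 12 libraries of the Type 1 experiment and the 6 of the IL-4 experiment, with Benjamini-Hochberg adjustment over all genes of the fit. Fold changes are on that scale and understate those of low genes. Between 3 and 3 libraries an exact permutation test could not give a p below 0.10, so limma alone was used. No p is given for the 10 genes in the comparisons on which they were chosen. Nor is any given for them between stimulated groups or in the interaction, which are built from those comparisons. Ly6g, Stfa3, Serpina3g, Cd163 and Orm1 are also given without p, since they were fitted only through their higher groups. From each list, named genes are up to 3 with the largest rise and 3 with the largest fall past the threshold, or a selection of these, whose higher group averaged 50 or more. Those named beyond this, such as Tlr4, Epx, Ly6g, Stfa3, Saa2 and Orm1, were named after their values were seen. Promoter windows came from RefSeq (GRCm38.p6). Alternatives were a pseudocount of 5, other filters, array weights, a common upper quartile, edgeR 4.0.16 and DESeq2 1.42.0 on recovered reads, a replicate block, no fold threshold and leaving out each library. Tables and plots were made with Python 3.11.15, pandas 2.3.3 and matplotlib 3.10.9, and the fits were tested on simulated data. Eosinophils without apoptotic cells were not analysed here. Of the regulators and motifs searched, 1 each is not reported here.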

Additional observations from a re-analysis of the deposited data

Results flagged for a closer look

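The E. coli effect on the log2 scale was lower with IFN-γ than without it for 5 of the 6 genes fitted in the Type 1 experiment. These were past the threshold of the interaction term in limma over 12 libraries, as were 4.28% of all 10166 genes. The genes were chosen on the comparisons that make up this term, so the values are a description and not independent evidence. The effect with IFN-γ minus that without was -2.62 ± 0.30 (SE) for S100a8, -1.56 ± 0.18 for Slpi and -1.39 ± 0.27 for Lcn2. It was -3.29 ± 0.79 for S100a9, which was fitted only through its stimulated groups and was not past the threshold without replicate 1 of E. coli + ACs. For Saa3 it was -0.89 ± 0.21, which was not past the threshold when all genes with any value above 0 were fitted. The E. coli libraries without IFN-γ were above ACs for all 5, as they were for 19.9% of all genes. With IFN-γ present, the E. coli libraries overlapped those with IFN-γ alone for S100a8, S100a9, Slpi and Lcn2 and lay below them for Saa3. The cause was not tested.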

How the results depend on the processing

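The number of these genes past the threshold stayed within 1.5 times its value under every alternative run, in all 8 comparisons. Of 935 single values recomputed, 917 kept their direction and their side of the threshold, 11 crossed to past it and 7 fell short of it, and no value past the threshold changed sign. Saa3 passed with E. coli without replicate 1 or 2 of ACs or replicate 2 of E. coli + ACs (0.66 to 0.68), with IFN-γ without replicate 3 of IFN-γ + ACs (0.62), and with IL-4 without replicate 3 of both groups (-0.65). S100a9 between IFN-γ and E. coli passed in 3 of the fits that left out 1 library. Residual correlations between same-numbered libraries were -0.089 to 0.085 in the Type 1 experiment and 0.001 to 0.021 in the IL-4 experiment. In the IL-4 experiment there was 1 pair per number, and the replicate 3 libraries were the smallest, so pairing by number could not be judged there. With a replicate block the IL-4 comparison had 2 of these genes past the threshold in place of 3, since Prtn3, with an unchanged -2.73, was no longer past it, and the block changed no other call of theirs. Over all genes the IL-4 count of 116 became 74 with the block, 208 with all genes above 0, 212 with edgeR, 209 with DESeq2, 745 with array weights and 656 without replicate 3, and 47 to 62 without 1 deep library. The interaction count of 756 was 400 without replicate 1 of E. coli + ACs, 439 without replicate 3 of ACs and 486 without replicate 2 of IFN-γ + ACs. A common upper quartile moved the median of all genes by -0.137 for both stimuli against ACs and by -0.105 for both stimuli against E. coli + ACs. It changed the split of higher and lower genes from 1494 and 1746 to 1155 and 2200 for both stimuli against ACs. For both stimuli against E. coli + ACs the split went from 995 and 973 to 769 and 1352. Depth limits Ltf, Camp, Ngp, Prtn3 and S100a9, which rest on few reads.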
